A study of Mus musculus with 2 samples.

Results

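Among cells sorted from the small intestine of old mice as group 3 innate lymphoid cells (ILC3s), a small number carried the transcripts of connective tissue. They were picked by the summed unique molecular identifiers (UMIs, 1 per captured RNA molecule) of 5 extracellular matrix genes, Col1a1, Col1a2, Col3a1, Sparc and Dcn. Cells with a sum of at least 10 are called matrix-positive here, and cells with a sum of at most 1 matrix-negative. Of 7177 cells that had at least 300 genes and at most 25% mitochondrial UMIs, 119 were matrix-positive and 6541 matrix-negative, and 517 lay between. Replicate 1 held 110 matrix-positive cells of 3337, or 3.30% (95% exact Clopper-Pearson interval 2.72 to 3.96). Replicate 2 held 9 of 3840, or 0.234% (0.107 to 0.444). Both samples were ILC3 sorts from small-intestinal lamina propria, taken from male C57BL/6 mice aged 18 months and read on the BD Rhapsody system, which captures single cells in microwells. The labels give 1 group with 2 replicates, name no treatment, genotype or sorting gate, and do not say whether the replicates were separate animals or pools. No younger animals are among these samples, so no value below bears on age.

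Fibroblasts of the intestinal lamina propria make the collagens, proteoglycans and elastic fibres of the mucosa. They also act on their neighbours through Wnt and bone morphogenetic protein (BMP) signals to the epithelium and through chemokines and survival factors to immune cells. ILC3s are tissue-resident lymphocytes that depend on the interleukin-7 receptor Il7r, make interleukin-22 and are not a known source of fibrillar collagen.

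Since the cells were chosen by UMIs of the same cells, every gene below is a measure of the contrast that chose them, and all comparisons are descriptions with no test. Levels are in CPM, which scales the UMIs of the summed cells of 1 replicate to a common total, with 95% exact Poisson intervals that cover counting error only. They are not scaled to transcript length, so levels of different genes are not compared. A gene is called higher or lower if its level differed at least 4-fold in replicate 1 after adding 10 CPM to both sides. To be called higher it also needed at least 10 UMIs in the matrix-positive cells of both replicates together. Genes of a list with fewer UMIs count in its size but could not be called higher. Values of replicate 2 stand beside those of replicate 1 because 9 cells are few. There 1 UMI is 38.0 CPM, so a gene near 0 in matrix-negative cells can pass the 4-fold rule with 1 UMI. A count of genes higher in both replicates can therefore rest on 1 UMI per gene in replicate 2.

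The 5 matrix genes differed widely among the matrix-positive cells. Their sum was 10 at the lowest, 72.5 at the median and 2593 at the highest in replicate 1, and 12, 38 and 158 in replicate 2. The 10 cells with the highest sum held 59.6% of these UMIs in replicate 1. Col1a1, the main chain of type I collagen, was at 14392 and 3114 CPM in matrix-positive cells of replicates 1 and 2, against 36.3 and 3.26 CPM in matrix-negative cells. Dcn, encoding the collagen-binding proteoglycan decorin, was at 9508 and 8430 CPM in matrix-positive cells, against 24.4 and 2.82 CPM in matrix-negative cells. Dcn thus made up 42.9% of the matrix UMIs of replicate 2 cells and 16.4% of those of replicate 1 cells. Just inside the threshold, 4, 5 and 2 cells of replicate 1 had sums of 10, 11 and 12, and just outside it 4, 9 and 7 cells had sums of 7, 8 and 9. No gap in the sums separated the cells at the threshold in replicate 1. In replicate 2 the lowest sums inside were 12 and 13, in 1 cell each, and the highest outside was 8, in 1 cell.

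**Figure D1:**
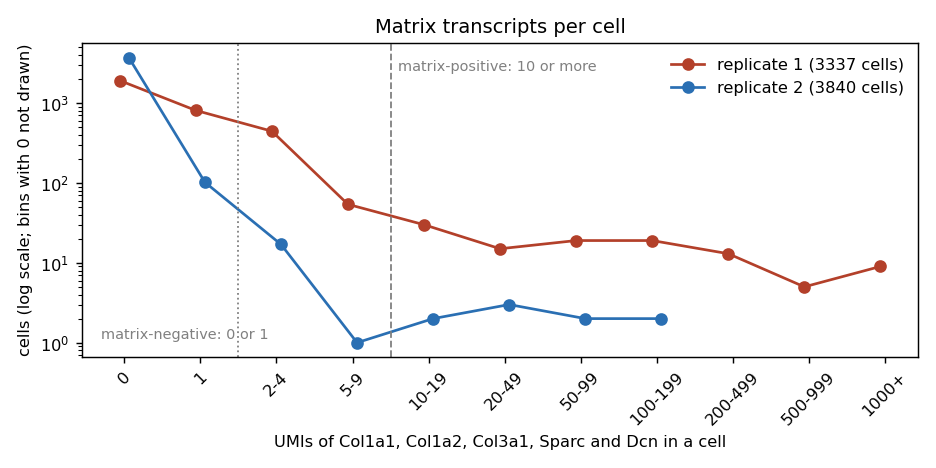
Number of cells (log scale) by the summed UMIs of Col1a1, Col1a2, Col3a1, Sparc and Dcn in a cell, for replicate 1 (red) and replicate 2 (blue), with lines at the bounds of matrix-positive and matrix-negative cells. Replicate 1 has cells in every bin and sums of up to 2593, while no cell of replicate 2 exceeds 158.

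Matrix UMIs were not limited to the matrix-positive cells, and the replicates differed in this as well. In replicate 1, the matrix-positive cells held 27910 of 30176 matrix UMIs (92.5%), and the other cells averaged 0.702 per cell. In replicate 2, the matrix-positive cells held 517 of 670 (77.2%), and the other cells averaged 0.0399. At least 1 matrix UMI was found in 42.5% of replicate 1 cells (40.8 to 44.2) and in 3.36% of replicate 2 cells (2.81 to 3.98). In replicate 1, Col1a1 made up 24.9% of the matrix UMIs in matrix-positive cells and 24.1% in all other cells, Col3a1 20.9% and 21.8%, and Dcn 16.4% and 16.2%. In replicate 2, Col1a1 made up 15.9% in matrix-positive cells and 23.5% in all other cells, Col3a1 13.2% and 24.2%, and Dcn 42.9% and 20.3%. The shares were thus close in replicate 1 and apart in replicate 2, where the other cells held 153 matrix UMIs. The source of the matrix UMIs outside the matrix-positive cells was not tested.

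The matrix-positive cells had more UMIs and genes at the median than matrix-negative cells. The rule counts UMIs with no adjustment for depth, so it favours deep cells. Matrix-positive cells had a median of 3378 UMIs and 1549 genes in replicate 1 and 2538 UMIs and 1329 genes in replicate 2. In matrix-negative cells the medians were 1845 UMIs and 984 genes and 1670 UMIs and 888 genes. The 30 cells of replicate 1 with sums of 10 to 19 had a median of 1625 UMIs and 935 genes. Mitochondrial UMIs had a median of 7.07% and 7.06% in matrix-positive cells and 8.96% and 8.19% in matrix-negative cells. The 2 samples shared 10 cell indices, none of them a matrix-positive cell.

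Fibroblast genes outside the rule were present in these cells. Adamdec1, a secreted metalloprotease typical of lamina propria fibroblasts (chr14:68563380-68582095, GRCm38), was at 4527 CPM (4339 to 4721) and 4747 CPM (3951 to 5656) in matrix-positive cells, against 17.0 and 2.82 CPM in matrix-negative cells. It was found in 70 of 110 and 8 of 9 matrix-positive cells, and in 2.57% and 0.184% of matrix-negative cells, at the median depths given above. With every cell thinned to 1000 UMIs, the shares were 57.3% of 103 and 88.9% of 9 matrix-positive cells, against 1.36% and 0.143% of matrix-negative cells. A list of 12 further fibroblast genes (Lum, Pdgfra, Col6a1, Col6a2, Dpt, Pcolce, Mfap5, Fbln1, Mmp2, Serping1, Loxl1 and Fstl1) summed to 14600 and 12380 CPM in matrix-positive cells, against 64.3 and 5.34 CPM in matrix-negative cells. All 12 were at least 4-fold higher in both replicates, and their median log2 ratio in replicate 1 was 5.75. Over all genes, 700 of the 6471 with at least 10 UMIs in matrix-positive cells, or 10.8%, were at least 4-fold higher in replicate 1, 516 of them, or 7.97%, in both replicates, and the median log2 ratio was -0.02. Since the rule chose cells rich in such transcripts, nothing is read from these counts beyond the match to the label.

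Markers of other stromal and tissue cells were mostly sparse or absent. Of 7 smooth muscle and myofibroblast genes 2 had at least 10 UMIs, and none was higher. The list as a whole summed to more in matrix-positive cells. Cnn1 was at 0, Acta2 at 29.0 and 0 CPM, and the list summed to 82.9 and 113.9 CPM in matrix-positive cells, against 0.757 and 0.593 CPM in matrix-negative cells. Of 8 endothelial genes Cdh5, Cldn5, Emcn and Lyve1 were at 0, and the list was at 49.8 and 38.0 CPM in matrix-positive cells, against 105 and 109 CPM in matrix-negative cells, mostly from Pecam1, which lymphocytes also express. All 10 epithelial genes (Epcam, Krt8 and others) and all 4 mesothelial genes (Msln, Upk3b, Lrrn4 and Wt1) were at 0 in both replicates. In matrix-negative cells the epithelial list was at 7.38 and 19.3 CPM and the mesothelial list at 0.189 and 0.148 CPM. A count of 0 allows up to 6.22 CPM in replicate 1 and 114 CPM in replicate 2 (3 UMIs of all UMIs of these cells). Of these levels only the epithelial one of replicate 1 lies above that bound, so the other zeros do not set the 2 kinds of cells apart. The glial genes Sox10, S100b and Gfap were at 0 as well, and the glial list had 27.0 and 0 CPM in matrix-positive cells, against 3.22 and 2.08 CPM in matrix-negative cells. Of 6 pericyte genes 2 had at least 10 UMIs, Rgs5 and Cspg4. Both were higher in replicate 1, and Rgs5 in both replicates. Rgs5, a regulator of G protein signalling often used as a pericyte marker, was at 859 and 608 CPM in matrix-positive cells, against 2.84 and 0 CPM in matrix-negative cells, with a UMI in 48 of 110 and 4 of 9 cells. In replicate 1 there were 15 UMIs of Cspg4, 3 of Abcc9 and 1 of Notch3, and Kcnj8 and Mcam had 0 in both replicates. Myeloid genes summed to 24.9 and 75.9 CPM in matrix-positive cells, against 113.9 and 41.2 CPM in matrix-negative cells, and mast cell genes to 1 UMI.

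**Figure D2:**
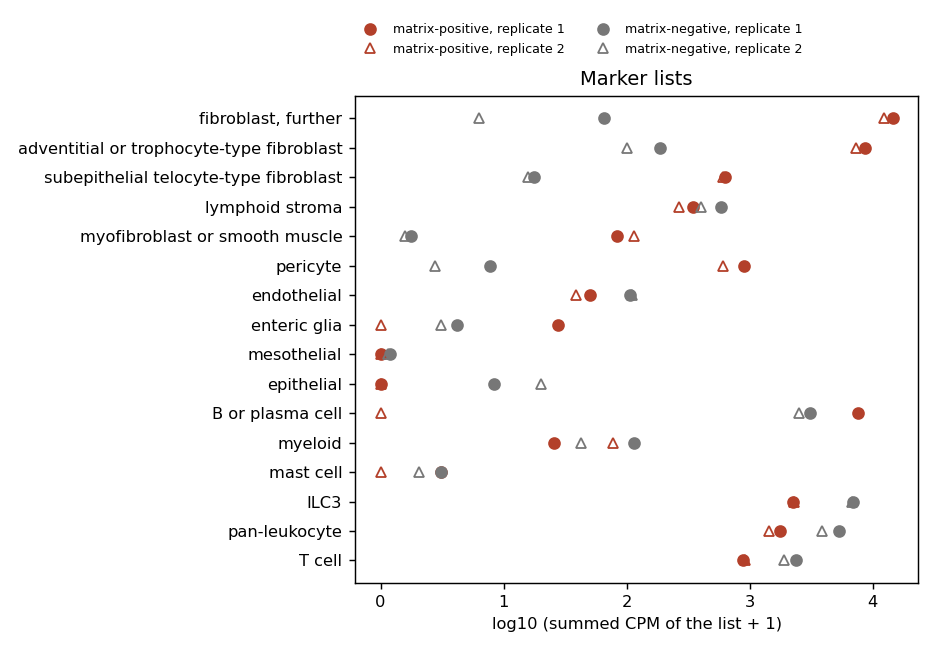
Summed level of each marker list, as log10 of CPM plus 1, in matrix-positive cells (red) and matrix-negative cells (grey) of replicate 1 (filled circles) and replicate 2 (open triangles). The 12 further fibroblast genes sum to 14600 and 12380 CPM in matrix-positive cells, while epithelial and mesothelial lists are at 0 in these cells.

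Lymphocyte transcripts were lower than in the rest of the sort but not absent. The 9 ILC3 genes, among them Il7r, Il23r, Il1r1, Kit, Il22 and Thy1, summed to 2252 and 2278 CPM in matrix-positive cells, against 6883 and 6829 CPM in matrix-negative cells. Whether all UMIs of these 9 genes came from lymphocytes was not tested. The 6 general leukocyte genes (Ptprc, Coro1a, Laptm5, Cd52, Rac2 and Cytip) summed to 1767 and 1443 CPM in matrix-positive cells, against 5311 and 3884 CPM in matrix-negative cells. The 7 T cell genes (Cd3d, Cd3e, Cd3g, Trac, Trbc1, Trbc2 and Trdc) summed to 877 and 911 CPM in matrix-positive cells, against 2387 and 1910 CPM in matrix-negative cells. No leukocyte UMI at all was found in 20 of 110 and 3 of 9 matrix-positive cells. Ptprc, encoding the leukocyte surface protein CD45, had a UMI in 44.5% (35.1 to 54.3) and 33.3% (7.49 to 70.1) of matrix-positive cells, against 65.0% and 52.8% of matrix-negative cells. Thinned to 1000 UMIs, the Ptprc shares were 17.5% and 11.1% in matrix-positive cells, against 48.4% and 38.6% in matrix-negative cells.

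The lymphocyte part was graded by the matrix sum. In the order of 0 to 1, 2 to 9, 10 to 19, 20 to 99 and at least 100 matrix UMIs, the leukocyte genes were at 5311, 5319, 4613, 2384 and 1112 CPM in replicate 1. In the same order the ILC3 genes were at 6883, 6839, 6661, 2620 and 1438 CPM, and the further fibroblast genes at 64.3, 154, 2088, 9434 and 18320 CPM. The 30 cells of replicate 1 with sums of 10 to 19 therefore had leukocyte and ILC3 levels close to those of matrix-negative cells, and a fibroblast level far below that of cells with higher sums. Pdgfra, the platelet-derived growth factor receptor that marks gut fibroblasts, had a UMI in 0 of these 30 cells, in 15 of 34 cells with 20 to 99 and in 42 of 46 cells with at least 100, at depths that differed. Median depth changed along the same order, from the lowest to the highest sums, as 1845, 2019, 1625, 3026 and 6411 UMIs. Thinned to 1000 UMIs, Pdgfra was found in 0 of 24 cells with 10 to 19 (exact interval up to 14.2%), in 8 of 33 with 20 to 99 (11.1% to 42.3%) and in 14 of 46 with at least 100 (17.7% to 45.8%), so that the first interval overlapped the second. In the same thinned cells Adamdec1 was found in 6 of 24, 24 of 33 and 28 of 46. In the order of all 5 classes, a leukocyte UMI was found after thinning in 97.9%, 98.3%, 100% (24 cells), 75.8% (33 cells) and 47.8% (46 cells). For the cells with 10 to 19 matrix UMIs, the leukocyte and ILC3 levels do not match the label of fibroblast alone. Replicate 2 had 2, 5 and 2 matrix-positive cells in the upper 3 classes, with the leukocyte genes at 4232, 1077 and 308 CPM and the further fibroblast genes at 1840, 10590 and 20300 CPM. Whether 2 cells under 1 index account for the mixed cells was not tested, and no doublet caller was run beyond the tag multiplets that the pipeline marks.

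**Figure D3:**
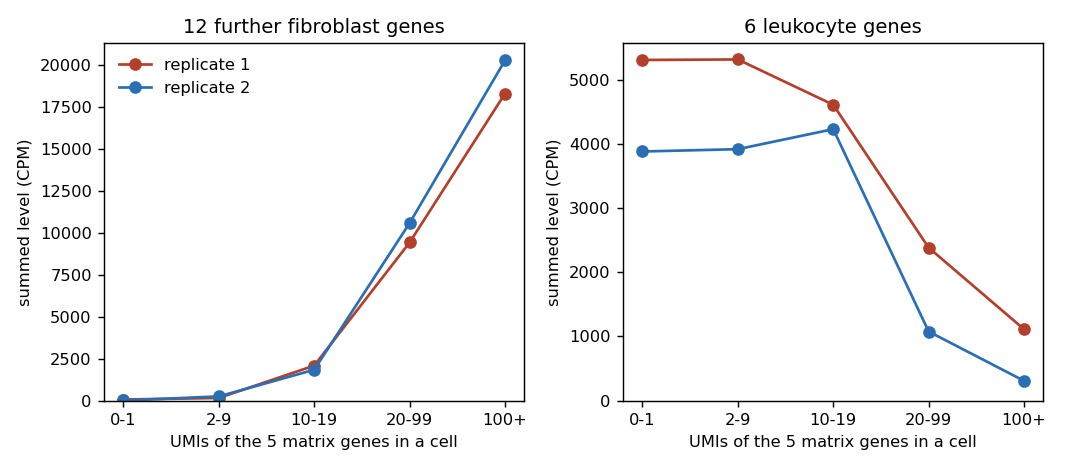
Summed level (CPM) of the 12 further fibroblast genes (left) and the 6 leukocyte genes (right) in cells grouped by their matrix UMIs, for replicate 1 (red) and replicate 2 (blue). In replicate 1 the leukocyte level is 4613 CPM at 10 to 19 matrix UMIs and 1112 CPM at 100 or more, while the fibroblast level is 2088 and 18320 CPM.

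Immunoglobulin transcripts came from very few cells. The 8 B and plasma cell genes summed to 7604 and 0 CPM in matrix-positive cells, against 3117 and 2511 CPM in matrix-negative cells. In replicate 1, 1 cell held 2560 of these 3667 UMIs, and 3 cells held at least 100 each. Igkc, the kappa light chain constant region, had 2182 of its 3221 UMIs in a single cell, and Jchain, which joins secreted antibodies, 350 of 405. Of the 8 genes 4 had at least 10 UMIs, and none was higher.

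The 20 genes with the highest ratio outside the rule were Sfrp1, Adamdec1, Bgn, Serping1, Gsn, Plpp3, Dpt, Col6a1, C3, Mgp, Mfap4, Fbln1, Clec3b, Col6a2, C1s1, Igfbp7, Col14a1, Gpx3, C4b and Grem1. Sfrp1 (chr8:23411502-23449632), a secreted inhibitor of Wnt ligands, was at 3231 CPM (3072 to 3395) and 3114 CPM (2477 to 3865) in matrix-positive cells, against 9.08 and 0.445 CPM in matrix-negative cells. Igfbp7, an insulin-like growth factor binding protein, was at 6594 and 4709 CPM in matrix-positive cells, against 57.5 and 19.4 CPM in matrix-negative cells, with a UMI in 98 of 110 and 8 of 9 cells. Grem1, a secreted BMP antagonist (chr2:113746164-113758646), was at 1277 CPM (1179 to 1382) and 684 CPM (405 to 1080) in matrix-positive cells, against 4.73 and 0.445 CPM in matrix-negative cells. It was found in 49 of 110 and 4 of 9 cells, fewer than any other of the 20 in replicate 1. The promoters of these genes and of the rule genes were searched for 2 short core elements, as a description with no test. RefSeq promoter sequence (GRCm38.p6) was matched for 15 of the 25 genes of the rule and this list. Col1a1, Dcn, Adamdec1 and Sfrp1 were among the genes without a match. CCAAT, or ATTGG on the other strand, lay in the 250 bases before the start of 3 of the 15 (20%), against 9314 of 27025 genes (34.5%). TATAAA, or TTTATA, lay there in 1 of 15 (6.67%), against 3504 of 27025 (13.0%). A match describes the letters and is not a site, and nothing is read from these counts. The promoters of Col3a1, the only one with TATAAA, and Grem1, one of those with CCAAT, are shown as the 120 bases before the start, 5′ to 3′ on the gene's strand, with the match or its complement in capitals.
Col3a1 (chr1:45311418-45311537, plus strand): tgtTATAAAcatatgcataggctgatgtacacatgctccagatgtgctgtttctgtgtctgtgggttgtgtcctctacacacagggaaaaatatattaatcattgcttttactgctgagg
Grem1 (chr2:113758649-113758768, minus strand): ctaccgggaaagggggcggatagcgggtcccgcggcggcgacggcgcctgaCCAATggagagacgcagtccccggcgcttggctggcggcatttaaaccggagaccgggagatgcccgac

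Nearly all matrix genes of the lists were higher. Of 11 collagen chains outside the rule all 11 were higher in replicate 1 and 10 in both replicates, with Col4a1 of basement membrane at 1018 and 456 CPM in matrix-positive cells, against 5.11 and 0.297 CPM in matrix-negative cells. The exception in replicate 2 was Col16a1, at 80.9 and 0 CPM in matrix-positive cells, against 2.84 and 0.593 CPM in matrix-negative cells. Of 13 small proteoglycan and matricellular genes 12 were higher, all but Fmod, of which 4 UMIs were found. Bgn, the proteoglycan biglycan, was at 3094 and 2658 CPM in matrix-positive cells, against 10.03 and 1.48 CPM in matrix-negative cells. Of 20 elastic fibre, fibronectin and laminin genes 19 were higher, all but Nid2. Eln, encoding elastin, was at 1265 and 532 CPM in matrix-positive cells, against 5.11 and 0.593 CPM in matrix-negative cells, and 1 cell held 110 of its 610 UMIs in replicate 1. Median log2 ratios of the 3 lists were 5.68, 4.88 and 4.97.

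Enzymes that process the matrix were described by 2 further lists. Of 15 collagen-modifying and secretory genes 14 had at least 10 UMIs, and 12 were higher in replicate 1 and 8 in both. The collagen chaperone Serpinh1 was at 1116 and 873 CPM in matrix-positive cells, against 4.54 and 1.63 CPM in matrix-negative cells. The crosslinking enzyme Lox was at 214 and 228 CPM in matrix-positive cells, against 0.946 and 0 CPM in matrix-negative cells. The prolyl isomerase Ppib, of general use in the secretory pathway, was at 141 and 75.9 CPM in matrix-positive cells and 86.9 and 74.4 CPM in matrix-negative cells. Of 16 proteases and inhibitors 15 had at least 10 UMIs, and 11 were higher in replicate 1 and 9 in both. The gelatinase Mmp2 was at 649 and 380 CPM in matrix-positive cells, against 3.41 and 0.445 CPM in matrix-negative cells. Mmp3, the protease stromelysin-1, was at 224 and 0 CPM in matrix-positive cells, against 0.757 and 0 CPM in matrix-negative cells. Its 108 UMIs lay in 8 cells, with 45 in 1 of them.

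Signals to the epithelium were present on both sides of the Wnt and BMP balance. Of 19 Wnt, R-spondin and BMP genes 10 had at least 10 UMIs. Of these, 7 were higher in replicate 1 and 6 in both, among them Sfrp1, Grem1, Bmp4, Bmp5, Rspo3 and Dkk2. The share over all genes with at least 10 UMIs was 10.8% in replicate 1 and 7.97% in both. Bmp4, a ligand that restrains epithelial proliferation, was at 531 CPM (468 to 600) and 570 CPM (319 to 939) in matrix-positive cells, against 13.1 and 13.2 CPM in matrix-negative cells. Rspo3, which amplifies Wnt signals to stem cells, was at 66.4 and 114 CPM in matrix-positive cells, against 0.189 and 0.297 CPM in matrix-negative cells. Wnt ligands were sparse, with 10 UMIs of Wnt2b, 9 of Wnt5a, 8 of Wnt4 and 0 of Wnt2 in replicate 1. Of the 8 genes linked to subepithelial telocytes, 3 had at least 10 UMIs, and Bmp4 and Bmp5 were higher. Foxl1, the factor that defines those cells, had 1 UMI and Vstm2a 0. Of the 8 genes linked to adventitial fibroblasts or trophocytes 6 were higher (Pi16, Cd34, Ly6a, Clec3b, Gsn and Grem1), 5 of them in both replicates. Cd81 and Dpp4 were not higher. Pi16 was at 43.5 and 0 CPM in matrix-positive cells, against 0 and 0.297 CPM in matrix-negative cells. Cd34 was at 558 and 646 CPM in matrix-positive cells, against 2.84 and 1.63 CPM in matrix-negative cells.

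Of 20 growth factor genes and their binding proteins 18 had at least 10 UMIs, and 16 were higher in replicate 1 and 12 in both. Igf1, insulin-like growth factor 1, was at 247 and 38.0 CPM in matrix-positive cells, against 0.378 and 0.445 CPM in matrix-negative cells. Ltbp4, which anchors latent transforming growth factor beta (TGF-beta) in the matrix, was at 1404 and 1481 CPM in matrix-positive cells, against 6.81 and 1.33 CPM in matrix-negative cells. Igfbp5 stood apart in that it was at 709 CPM (636 to 789) in replicate 1 and 3076 CPM (2443 to 3823) in replicate 2 in matrix-positive cells, against 3.03 and 0 CPM in matrix-negative cells. Of its 81 UMIs in replicate 2, 60 lay in 1 cell. Tgfb1, made by many lymphocytes, was at 22.8 and 38.0 CPM in matrix-positive cells, against 87.6 and 85.1 CPM in matrix-negative cells.

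Factors that act on lymphocytes were partly present. Of 13 survival factor and interleukin genes 8 had at least 10 UMIs. Of these, 5 were higher in replicate 1 (Il33, Il6, Kitl, Tnfsf13b and Csf1) and all but Il6 in both. The share over all genes with at least 10 UMIs was 10.8% in replicate 1 and 7.97% in both. The alarmin Il33 was at 74.7 CPM (52.3 to 103) and 152 CPM (41.4 to 389) in matrix-positive cells, against 0.568 and 0.890 CPM in matrix-negative cells. Kitl, the ligand of Kit, was at 82.9 and 114 CPM in matrix-positive cells, against 0.378 and 0.297 CPM in matrix-negative cells. Il7, the ligand of the interleukin-7 receptor of ILC3s, had 5 UMIs in 5 matrix-positive cells of replicate 1 and 0 in replicate 2, or 10.4 CPM (3.37 to 24.2) and 0 CPM, against 2.08 and 0.593 CPM in matrix-negative cells. Tslp had 11 UMIs and 0. Tnfsf11, the ligand RANKL that ILC3s make, was at 141 and 114 CPM in matrix-positive cells, against 583 and 403 CPM in matrix-negative cells. Of 17 chemokine and adhesion genes 12 had at least 10 UMIs, and 10 were higher in replicate 1 and 9 in both, all but Cxcl14. Cxcl12, the ligand of Cxcr4, was at 927 CPM (843 to 1017) and 494 CPM (263 to 844) in matrix-positive cells, against 3.97 and 0.297 CPM in matrix-negative cells. Ccl11, the eosinophil attractant eotaxin, was at 421 and 190 CPM in matrix-positive cells, against 0.757 and 0 CPM in matrix-negative cells. Cxcl13, which attracts B cells, was at 197 and 114 CPM in matrix-positive cells, in 22 of 110 and 1 of 9 cells, against 0.757 and 0 CPM in matrix-negative cells. Ccl19 and Ccl21a, made by T zone stroma of lymphoid organs, were at 0 in matrix-positive cells of both replicates.

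**Figure D4:**
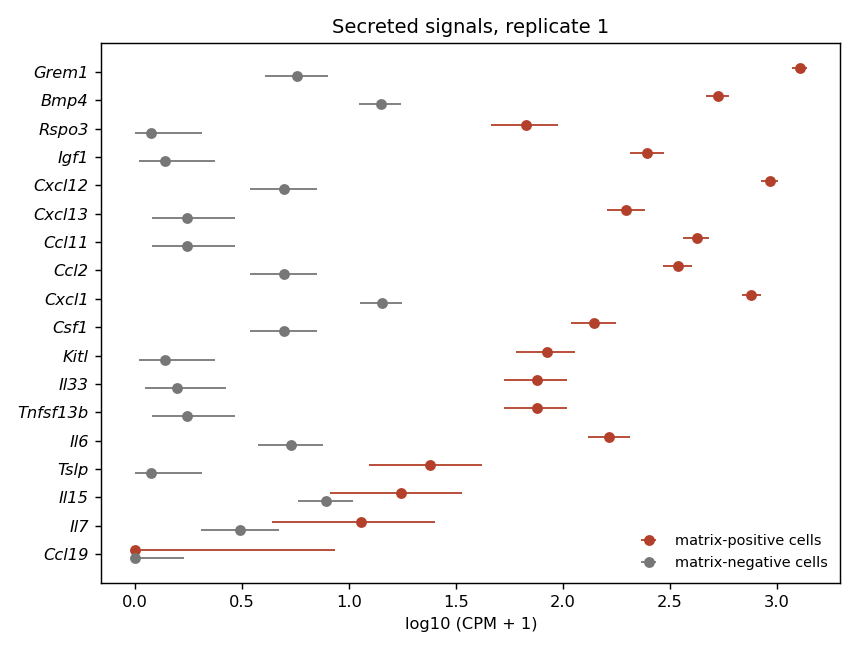
Level of 18 secreted signals in matrix-positive cells (red) and matrix-negative cells (grey) of replicate 1, as log10 of CPM plus 1, with 95% exact Poisson intervals as bars. Grem1 and Cxcl12 are at 1277 and 927 CPM in matrix-positive cells, while Il7 is at 10.4 CPM and Ccl19 at 0.

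Complement transcripts were prominent in both replicates. Of 12 genes 8 had at least 10 UMIs. All 8 were higher in replicate 1, among them C1ra, C1s1, C3, C4b, Serping1 and Cd55, and all but C2 in both. The list summed to 12610 and 9342 CPM in matrix-positive cells, against 82.3 and 22.8 CPM in matrix-negative cells. C3, the central complement component (chr17:57203970-57228136), was at 2287 CPM (2154 to 2426) and 1899 CPM (1409 to 2503) in matrix-positive cells, against 11.2 and 0 CPM in matrix-negative cells. Serping1, which inhibits C1, was at 4232 and 2582 CPM in matrix-positive cells, against 19.9 and 2.08 CPM in matrix-negative cells. C1qb, made by macrophages, was at 0 in matrix-positive cells of both replicates, as were Cfb and Cfd.

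Of 13 receptor genes of the PDGF, TGF-beta and related pathways 8 were higher in replicate 1 and 7 in both. Pdgfra was at 361 and 304 CPM in matrix-positive cells, against 2.27 and 0 CPM in matrix-negative cells. Pdgfrb was at 39.4 and 38.0 CPM in matrix-positive cells and 11.0 and 3.71 CPM in matrix-negative cells, under the 4-fold rule in replicate 1. Of 18 receptors for lymphocyte cytokines 12 had at least 10 UMIs, and 5 were higher (Ltbr, Il6st, Lifr, Osmr and Il11ra1). Of these 4 were higher in both replicates, all but Lifr. Over all genes with at least 10 UMIs, 10.8% were higher in replicate 1. Osmr, the receptor for oncostatin M, was at 93.3 and 114 CPM in matrix-positive cells, against 1.14 and 0.148 CPM in matrix-negative cells. Il22ra1, the receptor subunit through which interleukin-22 acts on epithelium, was at 0, as were Il22ra2 and Il1rl1. The retinaldehyde dehydrogenase Aldh1a3 was at 450 and 646 CPM in matrix-positive cells, against 0.946 and 0.297 CPM in matrix-negative cells, among 8 of 12 retinoid and prostaglandin genes that were higher in both replicates.

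Of 20 mesenchymal transcription factors 16 had at least 10 UMIs. Of these, 10 were higher in replicate 1 (Tcf21, Nkx2-3, Nfib, Nfix, Foxf1, Foxf2, Zeb2, Osr1, Gli1 and Twist2) and all but Twist2 in both. Tcf21 was at 552 CPM (487 to 622) and 684 CPM (405 to 1080) in matrix-positive cells, against 0.568 and 0.445 CPM in matrix-negative cells. Nkx2-3, a homeobox gene of midgut and hindgut mesenchyme, was at 284 and 304 CPM in matrix-positive cells, against 1.89 and 0.593 CPM in matrix-negative cells. Prrx1 and Meox2 were at 0 in both replicates.

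Genes that respond to handling, arrest and division were looked at as well. Over all genes with at least 10 UMIs, 10.8% were higher in replicate 1, and nothing is read from the list counts below. Of 14 immediate early genes 2 were higher, Egr1 at 4631 and 4291 CPM in matrix-positive cells, against 293 and 103 CPM in matrix-negative cells, and Ier3 at 454 and 380 CPM in matrix-positive cells, against 7.57 and 2.37 CPM in matrix-negative cells. Fos was at 4637 and 3266 CPM in matrix-positive cells and 2418 and 726 CPM in matrix-negative cells, and Jun at 3517 and 2696 CPM in matrix-positive cells and 3251 and 2190 CPM in matrix-negative cells. Of 11 heat shock genes 3 were higher in replicate 1 (Hspa1a, Hspa1b and Dnajb1) and 1 in both, Hspa1a, at 415 and 1975 CPM in matrix-positive cells, against 9.65 and 398 CPM in matrix-negative cells. Its level in matrix-negative cells thus differed between the replicates as well. Of 15 arrest and senescence-associated genes 5 were higher in replicate 1 and 3 in both, and those in replicate 1 included the secreted factors Igfbp3, Ccl2, Il6 and Mmp3. The cell cycle inhibitor Cdkn1a was at 222 and 266 CPM in matrix-positive cells and 332 and 308 CPM in matrix-negative cells, and Cdkn2a was at 0 in matrix-positive cells, against 0.189 and 1.78 CPM in matrix-negative cells. Of 10 proliferation genes 2 had at least 10 UMIs, and none was higher. Mki67 was at 0 in replicate 1 and had 8 UMIs in replicate 2, all in 1 cell with 13 matrix UMIs, 14 leukocyte UMIs and 4 UMIs of Top2a. Of 11 major histocompatibility genes none was higher, with B2m at 6381 and 4899 CPM in matrix-positive cells and 6124 and 5369 CPM in matrix-negative cells.

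Lower genes were read by a stricter minimum than higher ones. Of 1561 genes with at least 100 CPM in matrix-negative cells of both replicates, 16, or 1.02%, were at least 4-fold lower in replicate 1. The 10 with the lowest ratios were Kit, Chad, Hs6st2, Itga4, Clcn3, Ccdc184, Rab11fip1, Cyfip2, Basp1 and Car2, with log2 ratios of -2.34 to -2.13 in replicate 1. In replicate 2, Kit, Itga4, Car2 and Chad had log2 ratios of -4.59 to -2.45. These ratios rest on 0 UMIs of Kit and Itga4, 1 of Chad and 5 of Car2. For Itga4, the level in matrix-negative cells, 102 CPM, is below the 114 CPM that a count of 0 allows. The other 6 fell short of 4-fold. They were at -1.71 for Rab11fip1, -1.29 for Ccdc184, -1.28 for Cyfip2, -1.26 for Clcn3, -0.50 for Basp1 and -0.10 for Hs6st2. Kit, the receptor for stem cell factor, was at 51.8 CPM (33.5 to 76.5) and 0 CPM in matrix-positive cells, against 303 and 231 CPM in matrix-negative cells. Itga4, the integrin chain by which lymphocytes adhere to vessels, was at 27.0 and 0 CPM in matrix-positive cells, against 164 and 102 CPM in matrix-negative cells. Car2, carbonic anhydrase 2, was at 261 and 190 CPM in matrix-positive cells, against 1180 and 1476 CPM in matrix-negative cells. When only cells with at least 100 matrix UMIs were taken, a threshold chosen after seeing the data, 192 genes were lower in place of 16. Read in replicate 2 alone, 195 of the 1561 genes were lower, and 121 of 463 genes were higher. A count of 0 allows up to 114 CPM there, above the minimum of 100 CPM for lower genes.

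Matrix-positive cells of replicate 1 differed among themselves beyond the matrix sum. Of the 46 cells with at least 100 matrix UMIs, 20 had at least 10 Adamdec1 UMIs and 26 had fewer, a division chosen after the values were seen and described with no test. The Adamdec1-rich cells held 18 to 122 Adamdec1 UMIs, with a median of 62, and the others 0 to 7, with a median of 1. Among the 64 cells with lower matrix sums, 19 had at least 10 Adamdec1 UMIs and 6 had at least 8 but under 18, so that the gap between the sets held at high sums only. Depth ranged over 3756 to 10144 UMIs in the Adamdec1-rich cells, with a median of 6066, and over 1797 to 19271 in the others, with a median of 7110, and its part in the division was not tested. The 5 matrix genes made up 3.47% of the UMIs of the Adamdec1-rich cells, against 11.0% in the others. Of 972 genes with at least 50 UMIs in the 46 cells, 20 (2.06%) were at least 4-fold higher and 16 (1.65%) at least 4-fold lower in the Adamdec1-rich cells.

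The 10 genes with the highest ratios in the Adamdec1-rich cells were Igfbp5, Mmp10, Igfbp3, Ereg, Fgfr2, Ccl11, Cxcl14, Aldh1a3, Igkc and Lpl. Igfbp5 was at 1429 CPM (1231 to 1649) in the Adamdec1-rich cells, in 16 of 20 cells, and at 0 in the other 26 cells, where a count of 0 allows up to 15.7 CPM. Mmp10, the protease stromelysin-2, was at 1039 CPM (872 to 1229) in 10 of the 20 Adamdec1-rich cells and at 0 in the others. Igfbp3 was at 1009 CPM (844 to 1196) in 12 of the 20 and at 0 in the others. The epidermal growth factor receptor ligand Ereg was at 863 CPM in the Adamdec1-rich cells and 10.5 CPM in the others, Ccl11 at 871 and 26.2 CPM, Fgfr2 at 680 and 15.7 CPM, and Cxcl14 at 466 and 10.5 CPM. Aldh1a3 had a UMI in 20 of 20 Adamdec1-rich cells and 9 of 26 others, and the lipase gene Lpl in 17 and 6. Of the 565 Igkc UMIs in the Adamdec1-rich cells, 545 came from 1 cell.

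Other genes were higher in the 26 cells with little Adamdec1. Col8a1 was at 0 in the Adamdec1-rich cells and 392 CPM (309 to 492) in the others, in 19 of 26 cells. Cilp, encoding a matrix protein first described in cartilage, was at 7.64 CPM in the Adamdec1-rich cells and 623 CPM (516 to 745) in the others. Col8a1, Cilp, Chodl, Cd81, Scg2, Scara5, Gpc3, Abi3bp, Postn and Cxcl13 were the 10 genes with the lowest ratios, and all 51 UMIs of Scg2 came from 1 cell. Grem1 was at 756 CPM (615 to 921) in the Adamdec1-rich cells and 2600 CPM (2377 to 2839) in the others, with a UMI in 10 of 20 and 24 of 26 cells. C3 was at 1689 CPM (1473 to 1926) in the Adamdec1-rich cells and 4133 CPM (3850 to 4432) in the others. All 19 UMIs of Pi16 in these 46 cells lay in the others, in 8 cells. Genes shared by both sets included Pdgfra at 443 CPM in the Adamdec1-rich cells and 466 CPM in the others, Cxcl12 at 1108 and 973 CPM, and Mfap4 at 2529 and 2464 CPM. Ptprc was at 76.4 CPM in the Adamdec1-rich cells and 115 CPM in the others, with a UMI in 5 of 20 and 11 of 26 cells. Of the ILC3 list, Il1r1 had a UMI in 13 of 20 and 13 of 26 cells, Thy1 in 8 and 18, and Il7r in 9 and 17. In replicate 2, the cell with the highest matrix sum had 1 UMI of Adamdec1 and 12 of Grem1, and of the 6 cells with at least 12 Adamdec1 UMIs 4 had no Grem1.

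**Figure D5:**
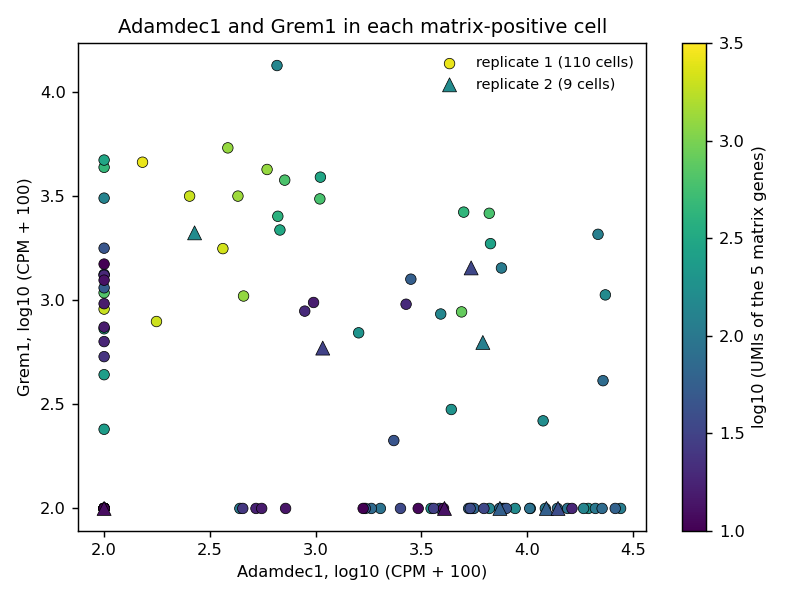
Level of Adamdec1 and Grem1 in each matrix-positive cell, both as log10 of CPM plus 100, for replicate 1 (circles) and replicate 2 (triangles), coloured by the UMIs of the 5 matrix genes. Cells with no UMI of a gene lie at 2 on its axis, and the cells with the highest matrix sums lie at low Adamdec1 with Grem1 present.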

How the data were processed

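The deposited tables hold UMI counts per cell and gene after RSEC error correction, with no normalisation. Per the file headers, the authors ran BD's WTA Multiplex Rhapsody pipeline, version 1.8, on GRCm38 and GENCODE M19. HISAT2 2.0.5 and Bowtie2 are also named in the submitters' processing notes. The authors deposited the pipeline's sample tag calls in a second file, and cells with tag 6 (replicate 1) and tag 12 (replicate 2) were used. The runs held 15793 and 16531 cells, of which 3427 and 3954 carried these tags, with 7011649 and 6845914 UMIs. Cells of other tags, multiplets and undetermined cells were not used. The cell filter left out 90 and 114 cells. Genes absent from 1 table were read as 0 there.

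UMIs of matrix-positive and matrix-negative cells were summed per replicate with Python 3.11.15, numpy 2.4.6, pandas 2.3.3 and scipy 1.17.1, and scaled to CPM. Log2 ratios used a prior of 10 CPM. The 4-fold rule was also run on simulated data, but no outcome of that run is given here. Nothing about how the rule performs on these cells is read from it. Lower genes needed at least 100 CPM in matrix-negative cells of both replicates. Genes are named if they are in the rule, are among the 20 highest ratios (at least 10 UMIs) or the 10 lowest, or belong to a list and pass the 4-fold rule or lead it by UMIs. The cells, lists and markers were chosen with earlier results of these data known, and the classes of the matrix sum, the division by Adamdec1 and the genes named from it after seeing the values. Other genes of a list are named for their known roles. Some genes of the lists are not reported here by name. Ccn1 and Ccn2 were not found under these symbols. Gene positions are from GENCODE M21 on GRCm38, matched by symbol. Alternatives covered the cell filter, the sum, the fold, the prior, minimum UMIs, thinning and replicates.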

Additional observations from a re-analysis of the deposited data

Results flagged for a closer look

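3 cells outside the cell filter carried matrix UMIs above the threshold and were left out of all values above. In replicate 1, 1 such cell had 1475 UMIs of the 5 matrix genes among 13802 UMIs, with 26.1% mitochondrial UMIs, and another had 246 among 1735, with 28.9%. In replicate 2, 1 cell had 13 matrix UMIs among 308, with 264 genes.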

How the results depend on the processing

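Beside 110 and 9 matrix-positive cells, a stricter cell filter gave 92 in replicate 1, a sum of at least 5 gave 164, at least 20 gave 80, and at least 100, chosen after seeing the data, gave 46 and 2. Other filters and sums moved replicate 2 to between 7 and 10. The 700 higher genes became 1361 at 2-fold, 359 at 8-fold, 1083 with a prior of 1 CPM, 238 with 50 CPM, 367 with cells thinned to 1000 UMIs (of 2088 genes with enough UMIs) and 121 of 463 without replicate 1, against 700 without replicate 2. The looser filter (520) and a sum of at least 5 (470) give replicate 2 10 cells, so that the fold is then read in both replicates. The 16 lower genes became 5 and 28 with the looser and stricter cell filter, 0 with a sum of at least 5, 93 with 20 and 192 with 100, 453 at 2-fold, 0 at 8-fold, 36 and 0 with priors of 1 and 50 CPM, 1 with the mean of single cells, 159 in cells with no Ptprc UMI, 7 without the 10 cells with the highest sum (chosen after seeing the data) and 195 without replicate 1, against 16 without replicate 2. The cause of these moves was not tested, beyond the fewer cells or genes that an alternative leaves. Leaving aside settings that cannot change a ratio read in replicate 1, of 320 values of the 20 highest genes 205 moved by less than the spread between the replicates and 115 by more, all between 4.6 and 8.54 on the log2 scale, and of 160 values of the 10 lowest 122 and 38, between -4.59 and -0.10. No value changed sign. The setting without replicate 1 puts in the value of replicate 2, so it counts as a move for every gene. The looser filter and a sum of at least 5 put in the lower log2 ratio of the 2 replicates, such as -4.59 for Kit in either setting. Some of their moves are therefore a change of replicate as well. No paired analysis was possible because the result comes from no test, the cells having been chosen by the same counts, and each ratio is taken within its own replicate. With 9 cells and 26334 UMIs, replicate 2 allows 114 CPM for a count of 0.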
